A study of Mus musculus with 92 samples.

Results

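Adar1 knockout (KO) ER-Hoxb8 macrophages were compared with non-targeting control (NTC) macrophages at 0.4 uM baricitinib. The libraries were chosen by their sample labels, and 7 of the 92 libraries of the series were compared. They were A7, A12 and A17, here KO replicates 1, 2 and 3, and N2, N7, N12 and N17, here NTC replicates 1 to 4. Unless stated otherwise, p-values came from a limma fit of all 33 baricitinib libraries, with a mean for each of 10 groups. The progenitors were an FVB, Cas9 heterozygous ER-Hoxb8 line that received a GFP retroviral vector with either an NTC sgRNA or Adar1 sgRNA #1 and was FACS-sorted more than once. Macrophages were grown for 7 days in M-CSF, with baricitinib renewed at each change of medium, and bulk RNA was sequenced. Each genotype was a single line, so line and genotype cannot be told apart. The replicates were wells of that line, so a p-value here measures the spread between wells.

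Depth estimated from the deposited values was 32.8, 9.56 and 17.1 M reads in KO replicates 1, 2 and 3 and 14.5, 11.3, 14.3 and 12.8 M reads in NTC replicates 1 to 4. Macrophage markers fitted the label in every library. Gene values are given in log2 CPM, reads scaled to the library, with a lowest possible value of -2.78. Cx3cr1, the fractalkine receptor, read 10.58, 10.23 and 10.34 in the KO and 10.46, 10.45, 10.50 and 10.46 in the NTC libraries. The scavenger receptor gene Cd68 was also high throughout, at 10.92, 10.97 and 11.05 in the KO and 11.06, 10.96, 10.92 and 11.25 in the NTC libraries. The summed level of 13 macrophage genes was 17144, 16552 and 16464 CPM in the KO and 14687, 14205, 14735 and 15464 CPM in the NTC libraries, with Cd14 the most abundant over the 7 libraries. Of 65 marker genes of other blood, stromal and epithelial cells, 38 were at or below 3 counts in all 7 libraries, including Ly6g, S100a9, Ltf, Cd3e, Kit and Epcam. The other 27 were above that level in at least 1 library. All 65 together summed to 377, 349 and 440 CPM in the KO and 145, 128, 133 and 177 CPM in the NTC libraries. S100a8 had the highest sum over the 7 libraries, and Csf3r was the most abundant of them in KO replicate 2. The part of these cells in the results was not tested.

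KO replicate 2 stood apart from the other libraries, so results below are given with and without it. Over 11152 genes, its Spearman correlation with KO replicate 1 was 0.905, and KO replicates 1 and 3 correlated with each other at 0.987. NTC libraries correlated with each other at 0.978 to 0.990, and KO replicate 2 correlated with them at 0.880 to 0.893. Its closest relatives were outside the dose: correlations were 0.948 to 0.958 with the KO libraries titled 0.016 uM (a dose that the treatment protocol gives as 10 times higher) and 0.930 to 0.946 with those at 0 uM, but 0.816 to 0.843 with those at 10 uM. It had the lowest depth of the 7 libraries. Ribosomal protein genes made up 1.30% of its signal, against 2.27% and 2.21% in KO replicates 1 and 3 and 1.99% to 2.18% in the NTC libraries. In KO replicate 2, 485 genes were above all 6 other libraries and at least 2 log2 units above the rest of its group, and 298 were below by the same measure. The corresponding numbers in the 6 other libraries were 14 to 69 and 26 to 59. Whether the label, the drug or the well of KO replicate 2 differed was not tested.

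ADAR1 edits adenosine to inosine in double-stranded RNA, and unedited RNA of this kind can engage the sensor MDA5 and start interferon production. Interferon then acts through its receptor and the kinases JAK1 and TYK2 on STAT transcription factors, which switch on interferon-stimulated genes (ISGs). Baricitinib inhibits JAK1 and JAK2, downstream of the interferon receptor.

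Adar, the targeted gene, was read first. It is itself an ISG, and an indel need not lower its RNA. Adar was at 4.12, 7.38 and 4.21 in KO replicates 1, 2 and 3 and 4.50, 4.22, 4.29 and 3.92 in the NTC replicates. The groups overlapped, since KO replicates 1 and 3 lay within the NTC range and KO replicate 2 was the high library. The difference missed the threshold with all 7 libraries (log2FC 1.01, adjusted p = 0.136) and without KO replicate 2 (log2FC -0.06, adjusted p = 0.925). RNA level therefore gave no check of the genotype label at this dose. Other genes, given below, separated all 3 KO from all 4 NTC libraries.

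The KO effect at this dose had a large component from a single well and a smaller component present in all KO wells. Of 11152 genes tested with limma, 199 were differentially expressed genes (DEGs: an adjusted p under 0.05 with a rise or fall of 2 log2 units or more). Of these, 137 rose (1.23%) and 62 fell (0.556%). Without KO replicate 2, 53 of 11128 genes rose (0.476%) and 57 fell (0.512%). The calls with and without it shared 47 higher genes, which is 34.3% of the higher genes with all libraries and 88.7% of those without it. They shared 38 lower genes, 61.3% and 66.7% of the corresponding sets. Leaving out KO replicate 1 or 3 instead raised the number of DEGs to 329 and 311. KO replicate 2 had the highest value of the 7 libraries in 127 of the 137 higher genes and the lowest in 39 of the 62 lower genes. In 103 higher and 60 lower DEGs the KO and NTC libraries did not overlap, and 22.1% of all genes tested did not overlap (12% with the KO higher and 10.2% with it lower). At an unadjusted p below 0.05, 15.2% of all genes tested were higher and 13.3% lower, or 11.1% and 8.74% without KO replicate 2. KO replicate 2 was above all 6 other libraries in 29.9% of genes and below them in 32.8%, so counts of a gene list are to be read against these shares. The all-gene median log2FC was 0.01 with and 0.03 without KO replicate 2.

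**Figure D1:**
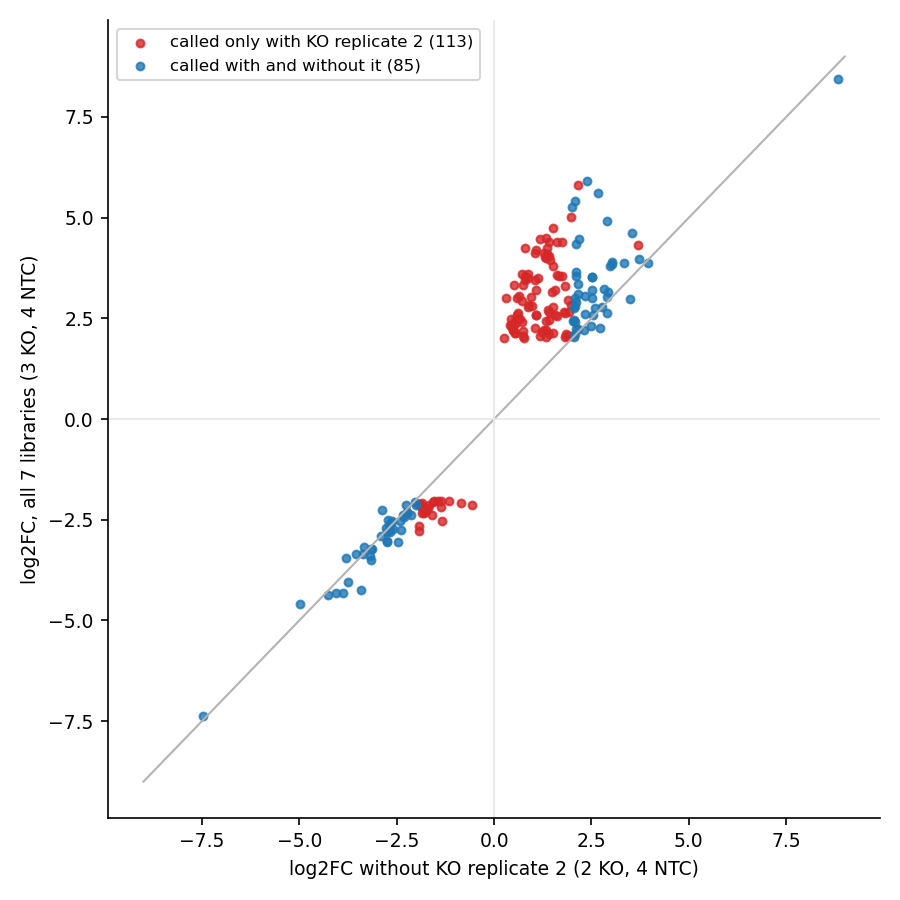
Log2FC of the DEGs at 0.4 uM with all 7 libraries against log2FC without KO replicate 2. Both sets contain 85 of the 199 DEGs.

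Most of the listed ISGs rose with all libraries, and most of the increase came from KO replicate 2. The 20 genes of the ISG list are those the study displayed for its own samples, so the list is not independent evidence of direction. With all libraries 16 of the 20 rose and none fell, and the median log2FC was 3.65. With KO replicate 2 left out, 4 rose (Ifit1, Ifit3, Usp18 and Oas1g) and the median was 1.08. At an unadjusted p below 0.05, limma without it gave 13 of the 20 higher and 0 lower. A limma fit of only the 7 libraries at 0.4 uM tested 16 of the 20, and 0 passed, although the median log2FC was 3.47. In that fit 4 of the 16 had an unadjusted p below 0.05, against 9.75% of all genes higher. Of all genes there, 0.251% rose and 0.309% fell. Slfn1, Ccl7, Ly6i and P2ry13, given below as rising both ways, that is with and without KO replicate 2, did not pass in that fit either. Relative to the NTC mean, the median of the list was 0.14, 8.77 and 1.80 log2 units in KO replicates 1, 2 and 3. In 20 of 20 genes KO replicate 2 was above all 6 other libraries. It was also above the mean of the untreated KO libraries in 20 of 20, by a median of 2.47 log2 units. Without KO replicate 1 or 3, all 20 rose, but KO replicate 2 then weighs more in the KO mean, so this is not separate evidence.

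**Figure D2:**
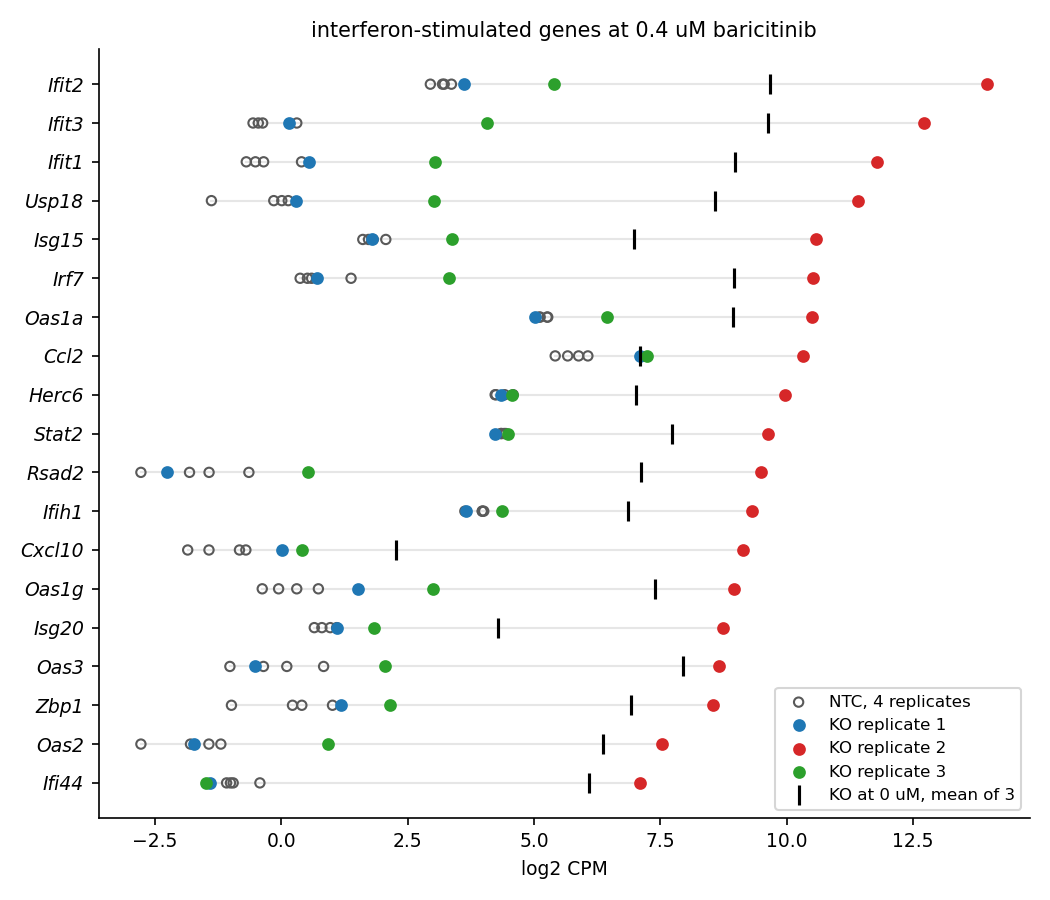
Listed ISGs, all but 1 of the 20, in each library at 0.4 uM, with the mean of the untreated KO libraries. Ifit2 in KO replicate 2 reached 13.97 log2 CPM, against an untreated KO mean of 9.68.

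IFIT proteins bind viral RNA 5' ends, and their genes showed the pattern most plainly. Ifit1 read 0.54, 11.78 and 3.03 in KO replicates 1, 2 and 3 and 0.40, -0.35, -0.51 and -0.70 in the NTC replicates. KO replicate 1 was only just above the highest NTC library, KO replicate 3 was moderately above it and KO replicate 2 was far above. Ifit1 rose both ways (log2FC 5.41, adjusted p = 0.00495, and 2.08 without KO replicate 2, adjusted p = 0.00275). Ifit3 was at 0.15, 12.72 and 4.08 in the KO and -0.46, -0.56, 0.30 and -0.37 in the NTC libraries, with KO replicate 1 inside the NTC range, and rose both ways (log2FC 5.92, adjusted p = 0.00463, and 2.39 without KO replicate 2, adjusted p = 0.00747). For Ifit2 the values were 3.61, 13.97 and 5.40 in the KO and 3.19, 3.22, 2.95 and 3.36 in the NTC libraries. All 3 KO libraries were above the NTC libraries, but the increase did not pass without KO replicate 2 (log2FC 4.48, adjusted p = 0.0109, and 1.33 without KO replicate 2, adjusted p = 0.00307). Rsad2, which encodes the antiviral enzyme viperin, read -2.27, 9.49 and 0.52 in the KO and -1.82, -2.78, -0.64 and -1.43 in the NTC libraries. Its KO replicate 1 lay within the NTC range, and its increase was lost without KO replicate 2 (log2FC 4.25, adjusted p = 0.0357, and 0.79 without KO replicate 2, adjusted p = 0.501). It also missed the threshold without NTC replicate 1, 2 or 4 (log2FC 4.20, 3.88 and 4.33). The GTPase gene Mx2 was at -1.64, 9.03 and 1.37 in the KO and -2.25, -2.12, -1.84 and -2.19 in the NTC libraries, with every NTC library at or below 3 counts. Mean Mx2 in the KO was at least 765-fold higher than a floor of 3 counts per NTC library, or 5.68-fold without KO replicate 2, and the call was then lost (adjusted p = 0.0141 at a log2FC of 1.96). In this family of 8 tested genes 7 rose, and 2 rose without KO replicate 2. The median log2FC was 4.37, or 4.95 with genes at the floor set to their bound, and 1.35 without KO replicate 2.

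Oligoadenylate synthetases bind double-stranded RNA and make a second messenger of antiviral defense. Oas1g read 1.52, 8.96 and 3.00 in the KO and -0.06, -0.38, 0.30 and 0.73 in the NTC libraries, with all 3 KO libraries above the NTC range (log2FC 4.34, adjusted p = 0.00137, and 2.11 without KO replicate 2, adjusted p = 0.00127). Oas1a was at 5.02, 10.50 and 6.44 in the KO and 5.27, 5.12, 5.10 and 5.26 in the NTC libraries. KO replicate 1 lay below the NTC range and KO replicate 3 above it, and the increase was lost without KO replicate 2 (log2FC 2.13, adjusted p = 0.0183, and 0.54 without KO replicate 2, adjusted p = 0.129). The ubiquitin-like modifier gene Isg15 read 1.80, 10.58 and 3.37 in the KO and 1.72, 1.61, 1.82 and 2.07 in the NTC libraries. Its KO replicate 1 was inside the NTC range and its call needed KO replicate 2 (log2FC 3.45, adjusted p = 0.0227, and 0.78 without KO replicate 2, adjusted p = 0.21). Usp18, which removes ISG15 and restrains the interferon receptor, rose both ways from 0.28, 11.41 and 3.03 in the KO and 0.01, 0.13, -0.15 and -1.39 in the NTC libraries (log2FC 5.25, adjusted p = 0.00596, and 2.00 without KO replicate 2, adjusted p = 0.0141). The KO libraries were all above the NTC range for Usp18, KO replicate 1 by the smallest step.

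Sensors of double-stranded RNA were mixed. Ifih1, which encodes MDA5, was at 3.66, 9.32 and 4.37 in the KO and 3.63, 3.97, 4.00 and 3.98 in the NTC libraries. The high library was KO replicate 2, KO replicate 1 was within the NTC range, and the difference missed the threshold (log2FC 1.89, adjusted p = 0.0602, and 0.12 without KO replicate 2, adjusted p = 0.836). Without KO replicate 1 or 3 Ifih1 rose (log2FC 2.95 and 2.59), but those passes rest mostly on KO replicate 2. The RIG-I gene Ddx58 was at 3.25, 9.17 and 3.77 in the KO and 3.03, 2.65, 2.61 and 4.06 in the NTC libraries, with KO replicates 1 and 3 inside the NTC range, and rose with all libraries (log2FC 2.31, adjusted p = 0.0336, and 0.42 without KO replicate 2, adjusted p = 0.448). Its call was also lost without NTC replicate 1, 2 or 3 (log2FC 2.29, 2.17 and 2.15). Zbp1, which senses Z-form nucleic acid and can start cell death, read 1.19, 8.54 and 2.15 in the KO and 0.40, -0.99, 0.22 and 1.01 in the NTC libraries. All 3 KO libraries lay above the NTC range, and the call was again lost without KO replicate 2 (log2FC 3.80, adjusted p = 0.00544, and 1.51 without KO replicate 2, adjusted p = 0.0186). Mavs, the adaptor of the RNA sensors, was level at 6.44, 6.25 and 6.44 in the KO and 6.55, 6.43, 6.38 and 6.47 in the NTC libraries (log2FC -0.08, adjusted p = 0.787, and -0.02 without KO replicate 2, adjusted p = 0.971). Among 10 tested sensors 2 rose, none rose without KO replicate 2, and the median log2FC moved from 1.04 to 0.05. At an unadjusted p below 0.05, limma gave 2 higher and 2 lower of them without KO replicate 2, where all genes gave 11.1% and 8.74%.

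Guanylate-binding proteins and immunity-related GTPases attack pathogen vacuoles. Of 8 tested Gbp genes 5 rose, against 1.23% of all genes, and none rose without KO replicate 2. At an unadjusted p below 0.05, limma without it gave 3 higher and 0 lower, against 11.1% and 8.74% of all genes. Gbp7 read -0.19, 8.92 and 0.63 in the KO and -1.07, -1.80, -0.29 and -1.34 in the NTC libraries. Here KO replicate 2 was far above the others, and the other KO libraries were above the NTC range by a smaller step (log2FC 4.24, adjusted p = 0.0104, and 1.35 without KO replicate 2, adjusted p = 0.0269). Gbp5 was detected in KO replicate 2 alone, at 5.35 log2 CPM, and was at the lowest value in all 6 other libraries. Its level in that library was at least 305-fold above a floor of 3 counts per library in KO replicates 1 and 3. Gbp5 did not pass as a group difference (adjusted p = 0.0919, and log2FC 0.00 without KO replicate 2). It passed without KO replicate 1 or 3, at a fitted log2FC of 4.07 either way, but those passes rest on KO replicate 2 alone. Tgtp2 was at -1.11, 7.99 and -1.30 in the KO and -0.67, -2.78, -2.78 and -2.78 in the NTC libraries, with KO replicates 1 and 3 inside the NTC range (log2FC 4.11, adjusted p = 0.0354, and 1.05 without KO replicate 2, adjusted p = 0.505). The call of Tgtp2 was lost as well without NTC replicate 2, 3 or 4 (log2FC 3.93 each). Igtp read 4.82, 10.22 and 5.24 in the KO and 4.52, 4.51, 4.54 and 4.61 in the NTC libraries, with no overlap between the groups, and its call needed KO replicate 2 (log2FC 2.22, adjusted p = 0.0206, and 0.49 without KO replicate 2, adjusted p = 0.0478). The median log2FC of the Gbp genes was 3.15, or 4.14 with floor genes at their bound, and 0.65 without KO replicate 2.

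Other interferon-linked families followed the same library. Slfn1, a Schlafen gene of leukocyte growth control, read 2.75, 10.48 and 4.45 in the KO and 1.19, 1.39, 1.46 and 1.68 in the NTC libraries. All 3 KO libraries were above the NTC range, and Slfn1 rose both ways (log2FC 4.46, adjusted p = 0.00113, and 2.17 without KO replicate 2, adjusted p = 2.99e-04). Ifi202b, a DNA-binding PYHIN gene, was at 3.94, 9.61 and 4.31 in the KO and 2.83, 3.52, 3.30 and 2.94 in the NTC libraries, also without overlap, but did not pass without KO replicate 2 (log2FC 2.81, adjusted p = 0.0069, and 0.98 without KO replicate 2, adjusted p = 0.0029). Of 9 tested cGAS, STING and PYHIN genes 3 rose, and none rose without KO replicate 2. Limma without it gave 1 higher and 1 lower at an unadjusted p below 0.05, near the 11.1% and 8.74% of all genes. The 6 interferon-induced PARP genes gave no calls, although KO replicate 2 was above all 6 other libraries in 6 of 6, against 29.9% of all genes. Their median log2FC was 1.29 with and -0.04 without KO replicate 2, and 6 were higher at an unadjusted p below 0.05 by limma with it and 0 without it. Ms4a4c, a tetraspan surface gene of myeloid cells, read -1.06, 9.24 and 1.85 in the KO and -2.41, -2.78, -1.87 and -2.05 in the NTC libraries. Every NTC library was at or below 3 counts for Ms4a4c, so the mean KO level was at least 882-fold higher than a floor of 3 counts per library with all libraries but at least 8.26-fold without KO replicate 2. The gene rose both ways (adjusted p = 0.00299 with and 0.0215 without KO replicate 2).

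KO replicate 2 had interferon transcripts that were at or below 3 counts in the other libraries. Ifnb1, the interferon beta gene, was at 6.02 log2 CPM there. It was at -2.78 and -2.29 in KO replicates 1 and 3 and at -2.78 in every NTC library. KO replicate 2 was thus at least 485-fold above the floor of 3 counts per library in the other KO libraries. The interferon alpha gene Ifna4 was at -2.78, 4.82 and -2.29 in the KO and -2.78, -2.78, -2.78 and -2.78 in the NTC libraries, also high in KO replicate 2 alone, and was too low elsewhere to be tested. Ifnb1 did not pass as a group difference (adjusted p = 0.0618) and was too low to be tested without KO replicate 2. It passed without KO replicate 1 or 3 (fitted log2FC 4.65 and 4.40). Those passes rest on the value of KO replicate 2 alone, so they are not separate evidence of a group difference. Neither receptor gene passed. Ifnar1 was lower in KO replicates 1 and 3 than in any NTC library and inside the NTC range in KO replicate 2, at 7.34, 7.79 and 7.18 in the KO and 7.71, 7.59, 7.91 and 7.57 in the NTC libraries (log2FC -0.26, adjusted p = 0.108, and -0.44 without KO replicate 2, adjusted p = 0.00453). For Ifnar2 the values overlapped at 4.96, 4.82 and 6.45 in the KO and 4.98, 6.28, 5.04 and 4.29 in the NTC libraries (log2FC 0.26, adjusted p = 0.801, and 0.56 without KO replicate 2, adjusted p = 0.668).

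Among genes of the kinases that baricitinib inhibits and of their pathway, Jak1 and Jak2 did not pass, and Irf7 and Socs3 rose with but not without KO replicate 2. Jak1 overlapped between groups at 6.61, 7.02 and 7.18 in the KO and 6.46, 7.09, 6.40 and 6.69 in the NTC libraries (log2FC 0.27, adjusted p = 0.356, and 0.23 without KO replicate 2, adjusted p = 0.599). Jak2 was higher in every KO than in every NTC library, at 3.61, 6.46 and 3.72 in the KO and 2.96, 3.09, 3.05 and 3.43 in the NTC libraries, but its log2FC was under 2 (log2FC 1.46, adjusted p = 0.00954, and 0.53 without KO replicate 2, adjusted p = 0.0875). Irf9, a DNA-binding interferon-response factor, was at 4.70, 8.28 and 6.34 in the KO and 4.52, 4.52, 4.42 and 4.66 in the NTC libraries, above the NTC range in every KO library at a log2FC under 2 (log2FC 1.91, adjusted p = 0.00135, and 0.99 without KO replicate 2, adjusted p = 0.00607). Of 7 tested interferon regulatory factor genes Irf7 alone rose, and none rose without KO replicate 2. Limma without it gave 2 higher and 0 lower at an unadjusted p below 0.05, against 11.1% and 8.74% of all genes. Without KO replicate 1 the log2FC of Irf9 was 2.78, which passed. The interferon-response regulator Irf7 read 0.70, 10.52 and 3.31 in the KO and 1.38, 0.60, 0.37 and 0.51 in the NTC libraries, with KO replicate 1 inside the NTC range (log2FC 4.13, adjusted p = 0.012, and 1.29 without KO replicate 2, adjusted p = 0.0675). Socs3, a feedback inhibitor of cytokine receptors, was above the NTC range in all KO libraries at 0.50, 2.91 and 1.00 in the KO and -2.23, -1.64, 0.07 and -0.91 in the NTC libraries (log2FC 2.65, adjusted p = 0.00499, and 1.93 without KO replicate 2, adjusted p = 0.0716).

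The promoters of genes that set KO replicate 2 apart were read for the interferon-stimulated response element, a pair of GAAA repeats with 2 bases between them, on either strand. Windows of 300 bases (250 before and 50 after the RefSeq start, build GRCm38.p6) were used, and 1131 of 32851 full-length promoters (3.44%) held the motif. For each named gene only the first listed window was read, and the share of 3.44% counts every full-length window. Of the 10 genes with the largest excess in KO replicate 2, 6 were matched to a promoter and 4 of these held the motif. Of the 10 with the largest deficit, 4 were matched and 0 held it. Among the 10 largest increases that separated the groups, 5 were matched and 2 (Ifit1 and Saa3) held it, and among the 10 largest decreases 8 were matched and 0 held it. A match describes sequence only, and use of the element was not tested. No match means none in that window, since other starts and bases outside it were not read. The windows below, with any motif in capitals, are from Ifit1 (chr19:34640639-34640938, plus strand), Ifit3 (chr19:34583279-34583578, plus), Rsad2 (chr12:26456403-26456702, minus), Tgtp2 (chr11:49064163-49064462, minus), Ifit2 (chr19:34550444-34550743, plus, no match) and Ncam2 (chr16:81200447-81200746, plus, no match).

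Ifit1: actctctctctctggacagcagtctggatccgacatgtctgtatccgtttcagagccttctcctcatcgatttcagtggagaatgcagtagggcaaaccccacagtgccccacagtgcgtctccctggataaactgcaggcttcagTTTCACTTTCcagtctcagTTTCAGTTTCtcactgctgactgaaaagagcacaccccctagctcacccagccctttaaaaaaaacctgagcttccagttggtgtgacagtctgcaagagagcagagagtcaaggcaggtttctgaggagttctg

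Ifit3: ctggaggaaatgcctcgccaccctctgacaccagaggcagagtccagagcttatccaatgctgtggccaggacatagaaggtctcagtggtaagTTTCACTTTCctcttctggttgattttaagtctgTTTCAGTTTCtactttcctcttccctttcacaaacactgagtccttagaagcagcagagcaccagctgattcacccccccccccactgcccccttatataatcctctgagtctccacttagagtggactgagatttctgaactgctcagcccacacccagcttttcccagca

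Rsad2: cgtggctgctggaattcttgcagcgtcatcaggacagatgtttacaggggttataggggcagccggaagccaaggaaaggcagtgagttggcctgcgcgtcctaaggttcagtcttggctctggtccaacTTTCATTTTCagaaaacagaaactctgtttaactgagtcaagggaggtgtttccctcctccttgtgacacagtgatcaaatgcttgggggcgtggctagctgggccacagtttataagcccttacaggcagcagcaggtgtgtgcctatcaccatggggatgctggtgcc

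Tgtp2: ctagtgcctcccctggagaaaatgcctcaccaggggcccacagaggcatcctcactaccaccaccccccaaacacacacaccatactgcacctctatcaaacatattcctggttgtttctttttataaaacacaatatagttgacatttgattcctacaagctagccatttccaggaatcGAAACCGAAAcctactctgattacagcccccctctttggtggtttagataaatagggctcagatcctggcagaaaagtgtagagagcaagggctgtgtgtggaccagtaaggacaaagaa

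Ifit2: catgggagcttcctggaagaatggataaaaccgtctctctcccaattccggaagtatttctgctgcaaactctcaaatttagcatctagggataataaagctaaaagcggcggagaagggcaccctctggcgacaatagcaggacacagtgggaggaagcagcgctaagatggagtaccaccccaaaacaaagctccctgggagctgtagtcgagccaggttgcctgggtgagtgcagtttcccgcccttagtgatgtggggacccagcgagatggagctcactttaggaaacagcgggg

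Ncam2: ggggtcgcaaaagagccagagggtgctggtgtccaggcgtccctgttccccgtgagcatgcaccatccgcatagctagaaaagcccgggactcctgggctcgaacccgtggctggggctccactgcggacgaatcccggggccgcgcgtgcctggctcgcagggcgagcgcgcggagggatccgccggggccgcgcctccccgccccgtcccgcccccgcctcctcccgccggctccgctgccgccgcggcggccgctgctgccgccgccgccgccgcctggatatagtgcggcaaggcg

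Chemokines recruit other leukocytes, and they differed in how far the increase reached beyond KO replicate 2. Ccl7, a monocyte chemokine, read 3.17, 7.74 and 2.98 in the KO and 0.06, 1.06, 1.56 and 1.24 in the NTC libraries. All KO libraries were above the NTC range, and Ccl7 rose both ways (log2FC 3.65, adjusted p = 2.3e-04, and 2.09 without KO replicate 2, adjusted p = 1.74e-04). Ccl2, which acts on the same receptor, was at 7.09, 10.33 and 7.24 in the KO and 5.42, 5.66, 5.88 and 6.06 in the NTC libraries. It also separated the groups completely, but without KO replicate 2 its log2FC was under 2 (log2FC 2.46, adjusted p = 1.81e-04, and 1.41 without KO replicate 2, adjusted p = 2.82e-05). Ccl5, a T cell chemokine, was at 0.34, 8.71 and 1.97 in the KO and -0.65, -0.73, 0.12 and 0.17 in the NTC libraries, with a small gap between KO replicate 1 and the NTC range, and needed KO replicate 2 to pass (log2FC 3.95, adjusted p = 0.00872, and 1.43 without KO replicate 2, adjusted p = 0.0604). Cxcl10, an interferon-induced chemokine, read 0.01, 9.13 and 0.41 in the KO and -1.86, -0.83, -0.70 and -1.43 in the NTC libraries, without overlap, and its call was lost in the same way (log2FC 4.39, adjusted p = 0.0134, and 1.41 without KO replicate 2, adjusted p = 0.144). Cxcl16 went the other way in part, at -0.63, 1.62 and -1.38 in the KO and 1.60, 2.07, 1.88 and 0.71 in the NTC libraries. KO replicates 1 and 3 were below the NTC range and KO replicate 2 inside it, and Cxcl16 passed without KO replicate 2 but not with it at full weight (log2FC -1.69, adjusted p = 0.0502, and -2.57 without KO replicate 2, adjusted p = 0.0032). Of 11 tested chemokines 5 rose and none fell with all libraries, and without KO replicate 2 only Ccl7 rose and only Cxcl16 fell.

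Inflammatory and NF-kB target genes were highest in KO replicate 2, which was above all 6 other libraries in 13 of 14 tested, against 29.9% of all genes. In 5 of the 14 every KO library was above every NTC library, and in 1 every KO library was below. The shares of all genes were 12% and 10.2%. Il1rn, which encodes the interleukin 1 receptor antagonist, read 4.63, 7.51 and 4.36 in the KO and 3.09, 2.64, 3.21 and 2.78 in the NTC libraries. All KO libraries were above the NTC range, and Il1rn passed with all libraries (log2FC 2.57, adjusted p = 3.92e-05, and 1.57 without KO replicate 2, adjusted p = 1.2e-07). The ubiquitin-editing inhibitor gene Tnfaip3 was at 0.84, 5.97 and 1.98 in the KO and -0.79, 0.33, 0.96 and 0.85 in the NTC libraries, with KO replicate 1 inside the NTC range (log2FC 2.59, adjusted p = 0.012, and 1.07 without KO replicate 2, adjusted p = 0.191). Tnf, the tumor necrosis factor gene, separated the groups at 5.14, 6.76 and 5.17 in the KO and 4.14, 4.35, 4.44 and 4.75 in the NTC libraries but at a log2FC under 2 (log2FC 1.27, adjusted p = 0.00348, and 0.73 without KO replicate 2, adjusted p = 0.0613). Il6 and Nos2 were at or below 3 counts in every library except KO replicate 2, where they reached 0.69 and 0.59 log2 CPM. Of 14 tested genes 2 rose and none rose without KO replicate 2. Limma without it gave 4 higher and 2 lower at an unadjusted p below 0.05, against 11.1% and 8.74% of all genes. The median log2FC was 1.40 with and 0.45 without it. Fas, a death receptor gene, read 4.71, 7.45 and 4.94 in the KO and 3.33, 3.33, 3.66 and 3.70 in the NTC libraries, again without overlap and with a log2FC under 2 once KO replicate 2 was left out (log2FC 2.20, adjusted p = 1.04e-04, and 1.32 without KO replicate 2, adjusted p = 4.04e-05).

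MHC class I genes present peptides to T cells, and none of the 18 tested genes of the class I pathway passed. At an unadjusted p below 0.05, limma gave 10 higher and 0 lower, and 3 higher and 0 lower without KO replicate 2. All genes gave 15.2% and 13.3%, and 11.1% and 8.74% without KO replicate 2. Their median log2FC was 1.04 with and -0.07 without it. KO replicate 2 was above all 6 other libraries in 17 of the 18, against 29.9% of all genes, and the median of the list was -0.06, 2.95 and 0.19 log2 units from the NTC mean in KO replicates 1, 2 and 3. B2m, the class I light chain, read 10.09, 12.30 and 10.27 in the KO and 10.04, 9.97, 9.90 and 10.24 in the NTC libraries. KO replicate 1 was inside the NTC range and KO replicate 3 just above it, and the log2FC was short of the fold limit (log2FC 0.85, adjusted p = 0.0403, and 0.14 without KO replicate 2, adjusted p = 0.566). The peptide transporter gene Tap1 was at 3.63, 8.16 and 3.60 in the KO and 4.26, 3.92, 4.21 and 3.82 in the NTC libraries, with KO replicates 1 and 3 below the NTC range and KO replicate 2 above it (log2FC 1.08, adjusted p = 0.224, and -0.44 without KO replicate 2, adjusted p = 0.299). The class II chaperone genes behaved differently. H2-DMb1 was at 5.86, 6.20 and 5.98 in the KO and 4.81, 4.59, 4.41 and 4.67 in the NTC libraries, and Cd74, the invariant chain, was at 7.27, 8.20 and 7.10 in the KO and 6.25, 6.13, 6.14 and 6.37 in the NTC libraries. Both separated the groups at a log2FC under 2, with KO replicate 2 the highest KO library, by more in Cd74 than in H2-DMb1: H2-DMb1 (log2FC 1.39, adjusted p = 9.19e-08, and 1.30 without KO replicate 2, adjusted p = 1.82e-06) and Cd74 (log2FC 1.30, adjusted p = 2.09e-04, and 0.96 without KO replicate 2, adjusted p = 0.00416).

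Stress and cell cycle genes set KO replicate 2 apart from the other KO wells. Ddit3, the stress transcription factor CHOP, read 3.46, 7.41 and 3.80 in the KO and 3.65, 3.79, 3.59 and 3.74 in the NTC libraries. Ppp1r15a, which ends the translation block, was at 4.53, 8.21 and 4.75 in the KO and 4.78, 4.49, 4.75 and 4.82 in the NTC libraries. For both, KO replicate 2 was the high library and KO replicates 1 and 3 were close to the NTC libraries, and neither passed: Ddit3 (log2FC 1.20, adjusted p = 0.0895, and -0.06 without KO replicate 2, adjusted p = 0.861) and Ppp1r15a (log2FC 1.12, adjusted p = 0.0936, and -0.07 without KO replicate 2, adjusted p = 0.836). Of 12 integrated stress response genes none passed. At an unadjusted p below 0.05, limma gave 5 higher, against 15.2% of all genes. Without KO replicate 2 it gave 2 higher and 1 lower, against 11.1% and 8.74% of all genes. KO replicate 2 was above all 6 other libraries in 9 of the 12, against 29.9% of all genes. The mitotic genes were low in the same library. Mki67, a proliferation marker, read 7.23, 4.65 and 6.98 in the KO and 7.13, 7.54, 7.49 and 7.23 in the NTC libraries, and the kinase gene Plk1 read 6.29, 3.22 and 5.94 in the KO and 6.12, 6.45, 6.53 and 5.58 in the NTC libraries. KO replicate 2 was the lowest library for all 12 mitotic and all 12 DNA replication genes tested, by a median of 2.43 and 1.73 log2 units below KO replicates 1 and 3, and it was the lowest library in 32.8% of all genes. None of these 24 genes passed, and 11 mitotic and 9 replication genes were lower at an unadjusted p below 0.05 by limma (0 and 0 without KO replicate 2), against 13.3% of all genes. The medians were -0.95 and -0.67 with KO replicate 2 and -0.05 and -0.08 without it. The low level was not particular to KO replicate 2, because untreated KO libraries had it too. Relative to their mean, KO replicate 2 was at a median of -0.12 log2 units in the mitotic and 0.14 in the replication genes. For the integrated stress response genes that median was 0.61. In bulk samples, fewer cells of a type and less RNA per cell cannot be told apart.

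**Figure D3:**
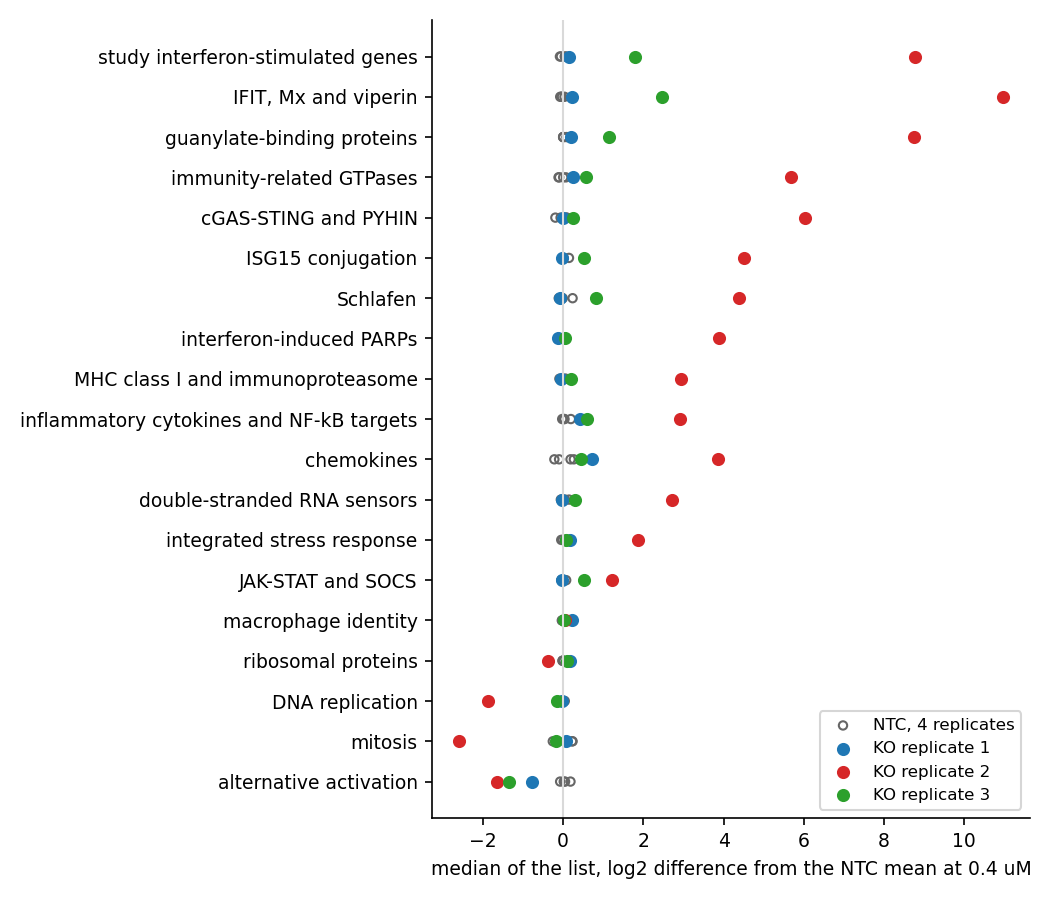
Medians of gene lists in each library, as the log2 difference from the NTC mean at 0.4 uM. The study's ISGs were at 0.14, 8.77 and 1.80 and the mitotic genes at 0.07, -2.59 and -0.17 in KO replicates 1, 2 and 3.

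A second set of genes separated all KO from all NTC libraries and did not depend on KO replicate 2. The decreases named in this paragraph and the next were picked from DEGs whose groups did not overlap. Their separation and their fall with all libraries were fixed by that choice, and only passing without KO replicate 2 was not. Ncam2, a neural adhesion gene, had the largest decrease, from 6.26, 6.38, 6.28 and 6.40 in the NTC to -1.29, -0.85 and -0.98 in the KO libraries. The values were tight within each group, and Ncam2 fell both ways (log2FC -7.37, adjusted p = 3.54e-14, and -7.47 without KO replicate 2, adjusted p = 8.33e-13). Ngfrap1, an adaptor of the p75 neurotrophin receptor, read -2.78, -1.33 and -2.21 in the KO and 2.44, 2.90, 2.28 and 2.28 in the NTC libraries. All KO libraries were at or below 3 counts for Ngfrap1, so mean NTC expression was at least 28.5-fold higher than a floor of 3 counts per KO library, and the gene fell both ways (adjusted p = 4.61e-11 with and 3.21e-11 without KO replicate 2). The actin-bundling gene Pls3 was at 5.48, 4.58 and 5.40 in the KO and 9.09, 9.14, 9.21 and 9.36 in the NTC libraries. The lowest was KO replicate 2, but the other KO libraries were also far below the NTC range (log2FC -4.04, adjusted p = 5.79e-15, and -3.75 without KO replicate 2, adjusted p = 9.02e-15). Colec12, a collectin scavenger receptor gene, read 5.53, 4.79 and 5.36 in the KO and 8.76, 8.48, 8.69 and 8.53 in the NTC libraries, with the same order of libraries (log2FC -3.39, adjusted p = 2.16e-13, and -3.17 without KO replicate 2, adjusted p = 2.84e-12). Ambra1, an autophagy regulator, was at 3.04, 4.02 and 3.02 in the KO and 6.89, 6.70, 6.93 and 6.75 in the NTC libraries. Here KO replicate 2 was the KO library nearest to the NTC range (log2FC -3.46, adjusted p = 2.13e-08, and -3.79 without KO replicate 2, adjusted p = 1.12e-08).

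Other decreases of this set were in genes at or below 4.86 log2 CPM in every NTC library. The phospholipase gene Plcb4 was at -0.75, -2.03 and -0.55 in the KO and 3.35, 3.57, 3.07 and 2.90 in the NTC libraries (log2FC -4.33, adjusted p = 1.04e-06, and -3.87 without KO replicate 2, adjusted p = 2.09e-05). Slco2b1, an organic anion transporter gene, read 1.37, -1.48 and 0.64 in the KO and 4.34, 4.86, 4.73 and 3.74 in the NTC libraries (log2FC -4.24, adjusted p = 5.26e-05, and -3.41 without KO replicate 2, adjusted p = 0.00111). Vstm2a, which encodes a secreted immunoglobulin-domain protein, was at -1.33, -1.54 and -1.17 in the KO and 3.05, 2.76, 3.19 and 3.10 in the NTC libraries (log2FC -4.37, adjusted p = 2.54e-07, and -4.28 without KO replicate 2, adjusted p = 3.84e-06). By the choice given above, no KO library reached the NTC range in these 3 genes, and all also fell without KO replicate 2. Efr3b, a membrane-anchoring gene, read -1.22, -2.78 and -2.78 in the KO and 2.67, 2.29, 1.07 and 2.15 in the NTC libraries, with more spread among the NTC libraries (log2FC -4.31, adjusted p = 9.56e-04, and -4.05 without KO replicate 2, adjusted p = 0.00719). C1qtnf6, a C1q-like secreted protein gene, was at -0.58, -1.45 and -0.29 in the KO and 2.92, 2.72, 2.61 and 2.63 in the NTC libraries (log2FC -3.50, adjusted p = 1.35e-07, and -3.16 without KO replicate 2, adjusted p = 3.13e-06). Both were picked in the same way, and both also fell without KO replicate 2.

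**Figure D4:**
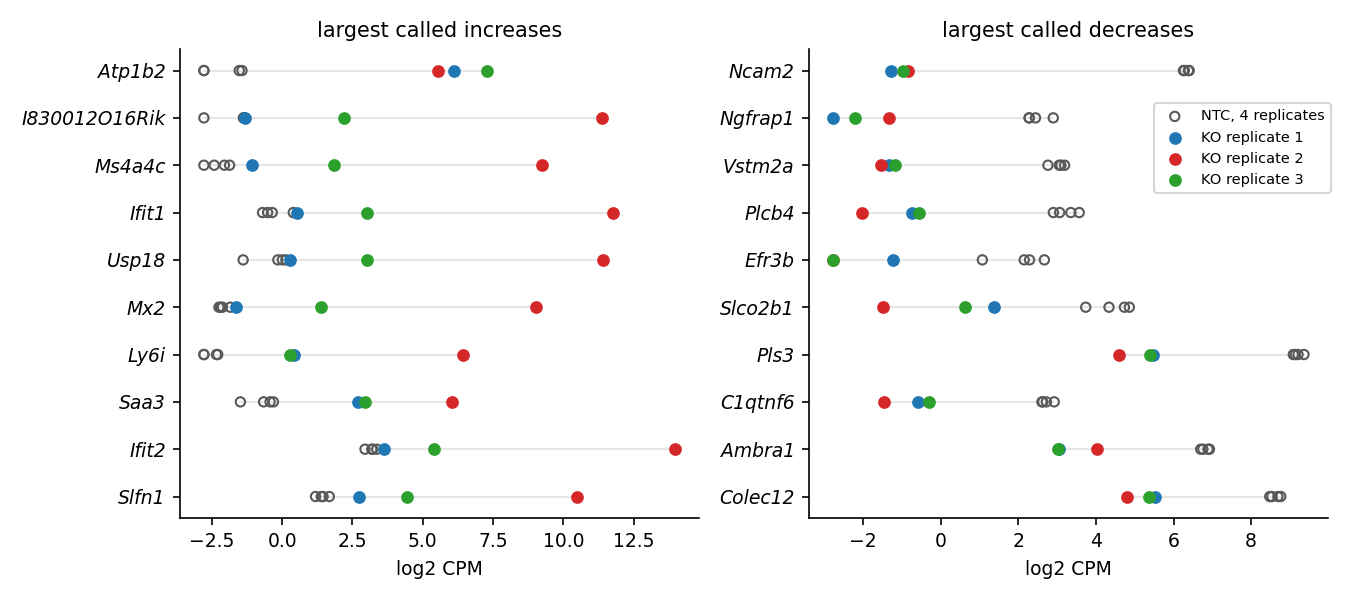
The 10 largest increases and 10 largest decreases among DEGs whose KO and NTC libraries did not overlap. Ncam2 was at -1.29, -0.85 and -0.98 in the KO and at or above 6.26 in the NTC libraries.

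Atp1b2, Saa3 and Ly6i were picked from the largest increases among DEGs without overlap, as were Ifit1, Ifit2, Mx2, Usp18, Slfn1 and Ms4a4c above. Separation of the groups was thus fixed for these genes. Atp1b2, a sodium pump subunit gene, was the largest increase by fitted log2FC and did not need KO replicate 2. It read 6.10, 5.55 and 7.29 in the KO and -2.78, -2.78, -1.52 and -1.43 in the NTC libraries. Every NTC library was at or below 3 counts and KO replicate 2 was the lowest KO library. Mean KO expression was at least 395-fold higher than a floor of 3 counts per NTC library, and at least 491-fold without KO replicate 2 (adjusted p = 2.36e-11, and 1.14e-10 without KO replicate 2). Saa3, an acute-phase gene of macrophages, was at 2.70, 6.03 and 2.95 in the KO and -1.48, -0.66, -0.43 and -0.31 in the NTC libraries. KO replicates 1 and 3 were already far above the NTC range and KO replicate 2 was higher still (log2FC 4.61, adjusted p = 7.1e-06, and 3.54 without KO replicate 2, adjusted p = 7.76e-05). Ly6i, a Ly6 surface gene, read 0.41, 6.43 and 0.28 in the KO and -2.78, -2.78, -2.34 and -2.29 in the NTC libraries. Its NTC libraries were all at or below 3 counts, and the mean KO level was at least 128-fold above a floor of 3 counts per library, or 4.91-fold without KO replicate 2 (adjusted p = 2e-04, and 2.34e-04 without KO replicate 2). Ly6c2, the inflammatory monocyte marker, was at 6.43, 9.50 and 6.60 in the KO and 3.97, 4.10, 4.03 and 3.88 in the NTC libraries, with no overlap, and rose both ways (log2FC 3.51, adjusted p = 4.41e-07, and 2.52 without KO replicate 2, adjusted p = 1.14e-10). Ccr2, another monocyte gene, was slightly lower in every KO library at 7.55, 8.01 and 7.22 in the KO and 8.14, 8.15, 8.13 and 8.24 in the NTC libraries and did not pass (log2FC -0.57, adjusted p = 0.356, and -0.78 without KO replicate 2, adjusted p = 0.33).

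Some genes of alternative activation and of lipid and pathogen uptake differed in all KO wells, in both directions. Of 7 tested alternative activation genes, limma gave 2 higher and 5 lower at an unadjusted p below 0.05, and 2 and 4 without KO replicate 2. All genes gave 15.2% and 13.3%, and 11.1% and 8.74% without KO replicate 2. The median log2FC of the list was -1.32 with and -1.41 without it. Chil3, a chitinase-like gene, read 4.53, 4.92 and 4.51 in the KO and 1.56, 1.65, 1.33 and 1.99 in the NTC libraries. All KO libraries were well above the NTC range, and Chil3 rose both ways (log2FC 3.02, adjusted p = 1.05e-10, and 2.89 without KO replicate 2, adjusted p = 3.11e-09). Folr2, a folate receptor gene of tissue macrophages, was at -0.10, -0.42 and -1.59 in the KO and 2.45, 2.68, 2.73 and 2.07 in the NTC libraries. Every KO library was below every NTC library, and Folr2 fell with and without KO replicate 2 (log2FC -3.19, adjusted p = 9.7e-05, and -3.33 without KO replicate 2, adjusted p = 3.92e-04). The C-type lectin gene Clec10a was at 6.00, 6.35 and 6.12 in the KO and 7.54, 7.26, 7.28 and 7.81 in the NTC libraries, lower in all KO libraries at a log2FC short of 2 (log2FC -1.32, adjusted p = 8.4e-06, and -1.41 without KO replicate 2, adjusted p = 2.03e-05).

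Among 12 tested scavenger, Fc and complement receptor genes, Cd36 and Cd5l fell and none rose, with and without KO replicate 2. Cd36, a fatty acid transporter, read 6.45, 6.63 and 6.16 in the KO and 8.78, 8.80, 8.78 and 9.37 in the NTC libraries. The secreted scavenger gene Cd5l was at 1.03, 0.59 and 1.85 in the KO and 4.24, 4.02, 4.00 and 4.46 in the NTC libraries. The groups were far apart in both and KO replicate 2 was close to the other KO libraries: Cd36 (log2FC -2.52, adjusted p = 6.31e-08, and -2.63 without KO replicate 2, adjusted p = 2.95e-07) and Cd5l (log2FC -3.02, adjusted p = 1.21e-06, and -2.74 without KO replicate 2, adjusted p = 2.63e-05). Fcgr2b, the inhibitory Fc receptor, was higher in all KO libraries at 9.81, 9.43 and 9.84 in the KO and 7.91, 7.77, 7.87 and 8.05 in the NTC libraries, with a log2FC under 2 (log2FC 1.79, adjusted p = 2.58e-09, and 1.92 without KO replicate 2, adjusted p = 3.18e-09). Fcgr1, the high-affinity Fc receptor, was at 5.19, 9.90 and 5.32 in the KO and 5.01, 5.10, 5.07 and 4.94 in the NTC libraries, and there the excess was mostly that of KO replicate 2 (log2FC 1.77, adjusted p = 0.0453, and 0.22 without KO replicate 2, adjusted p = 0.638). Without KO replicate 1 or 3 Fcgr1 rose (log2FC 2.58 and 2.51), which again rests mostly on KO replicate 2. Tlr2, a sensor of bacterial lipoproteins, read 7.64, 10.03 and 7.26 in the KO and 5.57, 5.92, 5.80 and 5.32 in the NTC libraries. All KO libraries were above the NTC range, but the log2FC was under 2 without KO replicate 2 (log2FC 2.66, adjusted p = 4.29e-06, and 1.80 without KO replicate 2, adjusted p = 1.98e-08). Tlr4, the endotoxin sensor, was lower in every KO library by less than the fold limit, at 7.39, 7.14 and 7.14 in the KO and 7.94, 7.95, 7.91 and 8.12 in the NTC libraries (log2FC -0.76, adjusted p = 1.91e-05, and -0.72 without KO replicate 2, adjusted p = 2.34e-04). Of 11 tested genes of the Toll-like receptor pathway, Tlr2 alone rose, and none rose without KO replicate 2. Limma without it gave 1 higher and 4 lower at an unadjusted p below 0.05, against 11.1% and 8.74% of all genes.

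Of 14 tested genes shared with microglia, 7 were higher in every KO than in every NTC library and 1 was lower, against 12% and 10.2% of all genes. P2ry13, Clec7a and Tmem119, given next, had the highest log2FC of this list. Lpl, Apoe, Spp1 and the microglial marker P2ry12 had the lowest. P2ry13, a purine receptor gene, read 3.43, 5.96 and 2.79 in the KO and 0.47, 1.13, 1.53 and 0.71 in the NTC libraries. All KO libraries were above the NTC range, and P2ry13 rose both ways (log2FC 3.10, adjusted p = 5.94e-05, and 2.15 without KO replicate 2, adjusted p = 5.42e-04). Clec7a, the beta-glucan receptor gene, was at 4.76, 5.00 and 4.65 in the KO and 2.73, 2.71, 2.78 and 2.78 in the NTC libraries, tight in both groups and just past the fold limit with all libraries (log2FC 2.05, adjusted p = 8.74e-07, and 1.95 without KO replicate 2, adjusted p = 1.43e-05). Tmem119, a microglial surface marker, was at 8.33, 7.81 and 8.29 in the KO and 6.90, 6.68, 6.78 and 6.61 in the NTC libraries, also separated, at a log2FC under 2 (log2FC 1.40, adjusted p = 8.91e-05, and 1.57 without KO replicate 2, adjusted p = 9.74e-05). Of 14 tested genes 2 rose and none fell, and without KO replicate 2 P2ry13 alone rose. The median log2FC of this list was 0.86 with and 0.84 without KO replicate 2, so it did not rest on that library. The general macrophage list gave no calls among 13 tested genes, with a median of 0.18 with and 0.11 without KO replicate 2. With all libraries, limma gave 5 higher and 1 lower of them at an unadjusted p below 0.05, against 15.2% and 13.3% of all genes. S100a8, a calcium-binding gene of neutrophils and monocytes, read 7.93, 6.18 and 8.34 in the KO and 5.90, 5.75, 5.73 and 6.56 in the NTC libraries. KO replicate 2 was inside the NTC range and KO replicates 1 and 3 above it, and S100a8 passed without KO replicate 2 but not with it at full weight (log2FC 1.50, adjusted p = 0.0109, and 2.15 without KO replicate 2, adjusted p = 1.61e-04). Its partner S100a9 was at or below 3 counts in all 7 libraries.

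The KO effect at 0.4 uM was then compared with that of untreated cells by a test of the difference between the 2 effects. At 0 uM, 214 genes rose (1.92%) and 218 fell (1.95%) in the KO. The KO effect at 0.4 uM was higher in 53 genes (0.475%) and lower in 23 (0.206%) of 11152. Without KO replicate 2 it was higher in 107 (0.962%) and lower in 163 (1.46%) of 11128, so higher calls outnumbered lower ones with that library and the reverse held without it. Leaving out KO replicate 1 or NTC replicate 2 at 0 uM lowered the total from 76 to 46 and 49. With all libraries no ISG of the list had a different KO effect at 0.4 and 0 uM (0 higher and 1 lower at an unadjusted p below 0.05 by limma, against 11.6% and 8.06% of all genes). With KO replicate 2 left out, the effect was lower at 0.4 uM in 14 of 20, with a median difference of -2.82. For Ifit1 the difference was -1.77 with and -5.10 without KO replicate 2, and for Rsad2 it was -2.77 and -6.23. Only the values without KO replicate 2 passed.

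Some differences from untreated cells held with and without KO replicate 2. Ccdc109b, a mitochondrial calcium channel subunit gene, was at 5.03, 4.28 and 4.97 in the KO and 5.34, 5.13, 5.27 and 4.98 in the NTC libraries at 0.4 uM. Its means at 0 uM were 0.45 in the KO and 5.01 in the NTC, a decrease in untreated KO cells that was not seen at 0.4 uM (difference 4.13, and 4.37 without KO replicate 2). Mgll, a lipase gene, read 0.13, 0.39 and 1.16 in the KO and 2.50, 2.31, 2.02 and 1.98 in the NTC libraries at 0.4 uM against means of 5.29 in the KO and 2.67 in the NTC at 0 uM. Its KO effect was lower at 0.4 uM by 4.26 log2 units, and by 4.18 without KO replicate 2. Slamf7, a leukocyte surface receptor gene, was at -2.06, 3.40 and -1.92 in the KO and 0.75, 0.85, 1.04 and 1.50 in the NTC libraries, with KO replicates 1 and 3 below the NTC range and KO replicate 2 above it. Its means at 0 uM were 3.35 in the KO and 0.82 in the NTC, and the difference was -3.75 with and -5.55 without KO replicate 2. Tgm2, a transglutaminase gene, was at 0.37, 2.41 and 0.44 in the KO and 1.37, 1.41, 1.77 and 1.14 in the NTC libraries at 0.4 uM and at 5.25 in the KO and 2.23 in the NTC at 0 uM (difference -3.36, and -4.03 without KO replicate 2). Inhba, an activin subunit gene, read -1.99, 0.84 and -2.58 in the KO and -0.03, 0.61, 0.45 and 0.59 in the NTC libraries, with KO replicate 2 the highest library and the other KO libraries below the NTC range (difference -3.56, and -4.60 without KO replicate 2). Without KO replicate 2, Slamf7 and Inhba also fell in the KO at 0.4 uM itself (log2FC -3.03 and -2.69, against -1.23 and -1.65, which did not pass, with all libraries). Cd5l, whose decrease was given above, fell by less at 0.4 uM than at 0 uM (difference 2.54, and 2.82 without KO replicate 2). For Ncam2 and Atp1b2 the KO effects at 0.4 and 0 uM differed by 0.14 and 1.26, which did not pass.

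Against 10 uM, the KO effect at 0.4 uM was higher in 194 genes (1.74%) and lower in 48 (0.43%). Without KO replicate 2 it was higher in 133 (1.2%) and lower in 37 (0.332%), and without KO replicate 1 or 3 at 0.4 uM the total rose from 242 to 426 or 439. At 10 uM itself, 83 genes rose (0.744%) and 267 fell (2.39%). None of the 20 listed ISGs rose at 10 uM (1 higher and 0 lower at an unadjusted p below 0.05 by limma, against 25% and 26.6% of all genes), and their median log2FC there was 0.10. The KO effect on 6 ISGs was higher at 0.4 than at 10 uM with all libraries, and on 4 without KO replicate 2. Usp18 was among them both ways, with a difference of 5.28 with and 2.03 without KO replicate 2. Adar differed by 2.36 with all libraries, and by 1.29, which did not pass, without KO replicate 2.

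**Figure D5:**
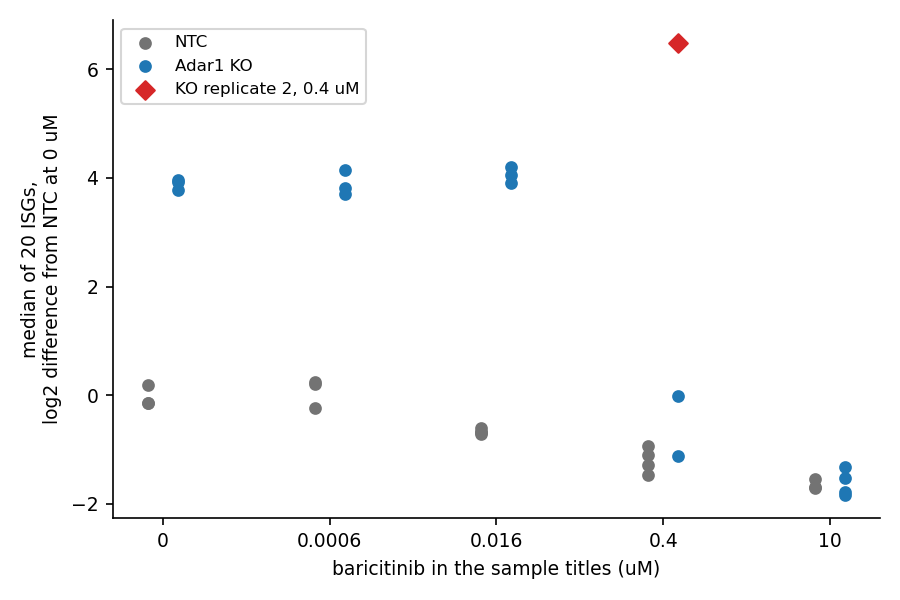
Median of the 20 listed ISGs in each of the 33 baricitinib libraries, as the log2 difference from untreated NTC macrophages, at the doses written in the sample titles. KO replicate 2 at 0.4 uM was at 6.49, above every other KO library.

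At 0.4 uM baricitinib the KO libraries thus gave 2 pictures. In KO replicates 1 and 3 the listed ISGs were at a median of 0.14 and 1.80 log2 units from the NTC mean, and in KO replicate 2 at 8.77, above untreated KO cells. A separate set that included Ncam2, Pls3, Colec12, Cd36, Folr2, Atp1b2, Saa3, Chil3 and Ly6c2 changed in all 3 KO libraries, with or without KO replicate 2. With 1 line per genotype, these differences cannot be assigned to the genotype rather than to the line.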

How the data were processed

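According to the paper, the authors trimmed reads with fastp, assigned them with kallisto 0.46.0 to the GRCm39 transcriptome and summed them to genes with tximport. The log2 values deposited by the authors are TMM-normalized CPM made with edgeR, and no counts were used here. The 33 baricitinib libraries share a lowest value and were taken as 1 set. CPM were recovered with a prior count of 2. A row with no gene name (0.00226% to 0.0127% of a library) was left out, and 29956 named genes were kept. Of values up to 20 reads, 38.6% lay within 0.05 of a whole number of reads. Depth estimates and the floor of 3 counts cover counting error only.

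Genes that exceeded 1 CPM in 3 or more of the 33 libraries were tested with limma 3.58.1 in R 4.3.3, with a mean for each of 10 groups, a variance trend and the Benjamini-Hochberg correction. A gene passed when its adjusted p was under 0.05 and it rose or fell by 2 log2 units or more. Python 3.11.15 made the tables. The code was tried on simulated data. Doses are those of the sample titles, and the protocol gives 0.016 uM as 10 times higher.

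Named genes were Adar, the genes of the lists used, the 10 largest increases and the 10 largest decreases among DEGs whose groups did not overlap, the 10 genes furthest above and the 10 furthest below in KO replicate 2 (CPM above 10 in a library), and the 5 largest differences of KO effect in each direction. The libraries and lists were chosen with earlier results of these data known. Coordinates and promoter sequences are from RefSeq annotation of GRCm38.p6.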

Additional observations from a re-analysis of the deposited data

Results flagged for a closer look

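In the group of 4 NTC libraries, 54 measures were checked for a library far from the other 3, and 2 were found, where chance gives about 1 in 20. I830012O16Rik was lowest in NTC replicate 2 (-2.78 log2 CPM), and Tgtp2 was highest in NTC replicate 1 (-0.67). Both genes are near the floor in these libraries, and the groups of 3 were not checked this way.

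The test of a difference between KO effects found 53 genes with a higher and 23 with a lower effect at 0.4 uM than at 0 uM, and 194 higher and 48 lower than at 10 uM. Against 0 uM the KO effect was higher for Espl1 (5.64), Ccdc109b (4.13), Cep78 (4.08), Ttll3 (3.95) and Acy1 (3.80). It was lower for Mgll (-4.26), Enpp2 (-4.14), Slamf7 (-3.75), Inhba (-3.56) and Tgm2 (-3.36). All 10 also passed without KO replicate 2. Enpp2 was at or below 3 counts in all 7 libraries at 0.4 uM. Against 10 uM the effect was higher for Usp18 (5.28), Ms4a4c (5.23), Mx2 (4.71), Ifit2 (4.65), Slfn1 (3.42), Saa3 (2.51), Adar (2.36) and Tgm2 (2.05). Of these 8 genes, only Usp18 passed without KO replicate 2, at 2.03. The cause was not tested.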

How the results depend on the processing

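The counts depended strongly on the libraries used. Leaving out each library in turn gave 110 to 329 DEGs against 199, 53 to 233 higher genes against 137 and 57 to 96 lower genes against 62. Without KO replicate 2 there were 110 DEGs (53 higher), without KO replicate 1 329 (233 higher and 96 lower) and without KO replicate 3 311 (220 higher). The listed ISGs that passed numbered 4 (without KO replicate 2) to 20 (without KO replicate 1 or 3) against 16, and their median log2FC was 1.08 (without KO replicate 2) to 5.32 (without KO replicate 1) against 3.65. Genes whose KO effect differed from that at 0 uM numbered 46 (without KO replicate 1 at 0 uM) to 270 (without KO replicate 2 at 0.4 uM) against 76, with 49 without NTC replicate 2 at 0 uM. Against 10 uM they numbered 170 to 439 against 242, with 426 without KO replicate 1 and 439 without KO replicate 3 at 0.4 uM. The counts of lists other than the ISGs without KO replicate 2 were chosen after seeing the data.

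A limma fit of only the 7 libraries gave 58 DEGs (26 higher and 32 lower). That fit passed 0 of the listed ISGs (4 of the 16 tested had an unadjusted p below 0.05), at a median log2FC of 3.47. Its smaller number of libraries leaves fewer degrees of freedom for the spread, and this fit cannot give the differences from 0 and 10 uM. A weight for each library (0.0776 for KO replicate 2, the lowest of 33) gave 70 higher genes, 4 listed ISGs with a median of 1.46, and 345 genes with a different KO effect from 0 uM. A mean CPM above 5 gave 115 DEGs (19 lower) and 34 genes that differed from 0 uM. It tested fewer genes, 8501, and left out 7 of the named genes that passed. With log2(CPM + 1) there were 118 DEGs (24 lower), 29 genes that differed from 0 uM and 142 from 10 uM, and the cause was not tested. A log2FC limit of 1 gave 619 DEGs (340 higher and 279 lower), 319 genes that differed from 0 uM and 1392 from 10 uM, because the limit is lower.

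Higher genes made up 68.8% of the DEGs, 44.8% with the 7 libraries, 47.0% with library weights, 48.2% without KO replicate 2, 83.5% with a mean CPM above 5 and 79.7% with log2(CPM + 1). Quantile normalization kept the split within 10 points (76.0%) and moved the median of the macrophage genes from 0.18 to -0.15, and the cause was not tested. The distance of KO replicate 2 from the other KO libraries was 136, or 109 over genes with a mean CPM above 5, which are fewer.

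Of 47 named genes that passed, 21 did not without KO replicate 2, 23 did not with the 7 libraries (6 more were not tested there) and 20 did not with library weights. No gene that passed changed direction under any alternative run. Adar did not pass under any of them, and its log2FC was -0.04 with library weights and -0.06 without KO replicate 2. Replicates with the same number were not alike: the correlations of KO and NTC residuals were 0.02, -0.11 and -0.01 by title number and 0.01, 0.00 and -0.12 by library number set. A fixed term for either block gave 194 DEGs and 16 listed ISGs, and Clec7a did not pass with the block by library number set. Depth limits genes with few reads: at 9.56 M reads, 3 counts in KO replicate 2 correspond to 0.314 CPM.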
